A study of Rattus norvegicus with 8 samples.

Results

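Cathepsins and lysosomal membrane glycoproteins were followed in the liver RNA of 8 rats, as the probe sets that the platform's annotation assigns to Ctsb, Ctsc, Ctsd, Ctse, Ctsh, Ctsk, Ctsl, Lamp1, Lamp2 or Lgmn alone. Of these 10 genes, 9 had a probe set, of 4736 genes named by a probe set of their own, and they held 17 of the 8740 probe sets that are not controls. No probe set was assigned to Lgmn, the gene of legumain, an asparagine-specific protease that processes cathepsins. The rats were male Fischer 344 animals of a labelled age of 6, with no unit given, fed AIN 76A chow, and each of the 2 groups held 4 animals with 1 Affymetrix RG-U34A array each. The D3T group was gavaged with D3T, short for 3H-1,2-dithiole-3-thione, a sulfur compound known to induce detoxification enzymes, at 0.3 mmol for each kg of body weight. The D3T was given in saturated sucrose, and the doses fell on days 1, 3 and 5. The vehicle group was gavaged with 0.2 ml of saturated sucrose, and the labels name the same days for 3 of its 4 rats and no days for vehicle replicate 2. The time between the last dose and the collection of the livers is not given in the sources used here. The 1 comparison of the design, D3T against vehicle, asks which liver transcripts differ after the treatment.

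Lysosomes are acidic organelles in which proteins, lipids and carbohydrates delivered by endocytosis and autophagy are broken down. Cathepsins are their main proteases and fall into aspartic proteases (Ctsd, Ctse) and cysteine proteases (Ctsb, Ctsc, Ctsh, Ctsk, Ctsl). Lamp1 and Lamp2 encode heavily glycosylated proteins that line the lysosomal membrane. In liver, hepatocytes hold many lysosomes, and so do Kupffer cells, the resident macrophages.

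Signals are the deposited intensities, which give no read count, so the number of arrays sets the precision. They were rescaled to a 2% trimmed mean of 500 per array, and values under 20.3, the 20th percentile of all values, were set to that floor before log2 was taken. The liver label was borne out by Alb, Ttr, Apoa1 and the other hepatocyte markers, whose summed signal per array ran from 244120.0 to 423138. The treatment check gave Gstp1, a glutathione transferase, at 29.9-fold higher and the quinone reductase Nqo1 at 3.44-fold higher after D3T with limma (adjusted p = 6.37e-07 and 0.00115). The actin 3'/5' ratio, a measure of RNA integrity and labelling, ran from 1.45 to 1.59 in the vehicle arrays and from 1.17 to 1.47 in the D3T arrays. For Gapdh the same ratio ran from 1.70 to 2.18 in the vehicle arrays and from 1.43 to 2.00 in the D3T arrays. The lowest values of both were in D3T arrays. The ranges of the groups overlapped only through D3T replicate 3 (1.47 for actin and 2.00 for Gapdh). The other D3T arrays lay below every vehicle array in both ratios. A fit with the actin ratio as a covariate can therefore hardly tell the ratio and the treatment apart.

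Among the cathepsin and lysosomal membrane genes, only Lamp2 passed the test of D3T against vehicle. It was lower after D3T by 2 of its 3 probe sets, and no gene passed as higher. Both calls were lost with the actin covariate, and that of D90211_s_at passed in 0 of the 8 fits without 1 array. The other genes with tested probe sets, Ctsb, Ctsl, Ctsh, Ctsc, Ctsd and Lamp1, did not pass the test. Their changes were at most 1.44-fold and mostly toward lower signal. Of the 2 called Lamp2 probe sets, 1 was 1.69-fold lower and the other 1.36-fold, which is within the range of these changes. The probe set S85184_at, which shares its name stem with the Ctsl probe set S85184_g_at, was lower by the same test. It has no gene name in the annotation and was not counted. The filter, which kept the 60% of probe sets with the highest mean signal over all 8 arrays, passed 12 of the 17 probe sets, from 7 genes. All probe sets of Ctse and Ctsk and 3 of the 4 of Lamp1 were too dim to be tested. Of the 12 tested, 2 were lower and 0 higher by limma at an adjusted p under 0.05, and 5 had an unadjusted p under 0.05, against 29.3% of all probe sets at that level. The 2 lower calls are 16.7% of 12, beside 6.48% of all 5244 probe sets tested called lower, 4.2% called higher and 10.7% called in either direction. The 4 D3T arrays lay wholly below the 4 vehicle arrays for 4 of the 12 probe sets (33.3%), beside 19.2% of all probe sets with groups that did not overlap in either direction and 11.3% in this direction. A negative log2 fold change was found for 10 of the 12, and the median was -0.39, beside a median of 0.02 over all probe sets tested. Several probe sets read the same gene, so these are fewer than 12 independent readings.

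**Figure D1:**
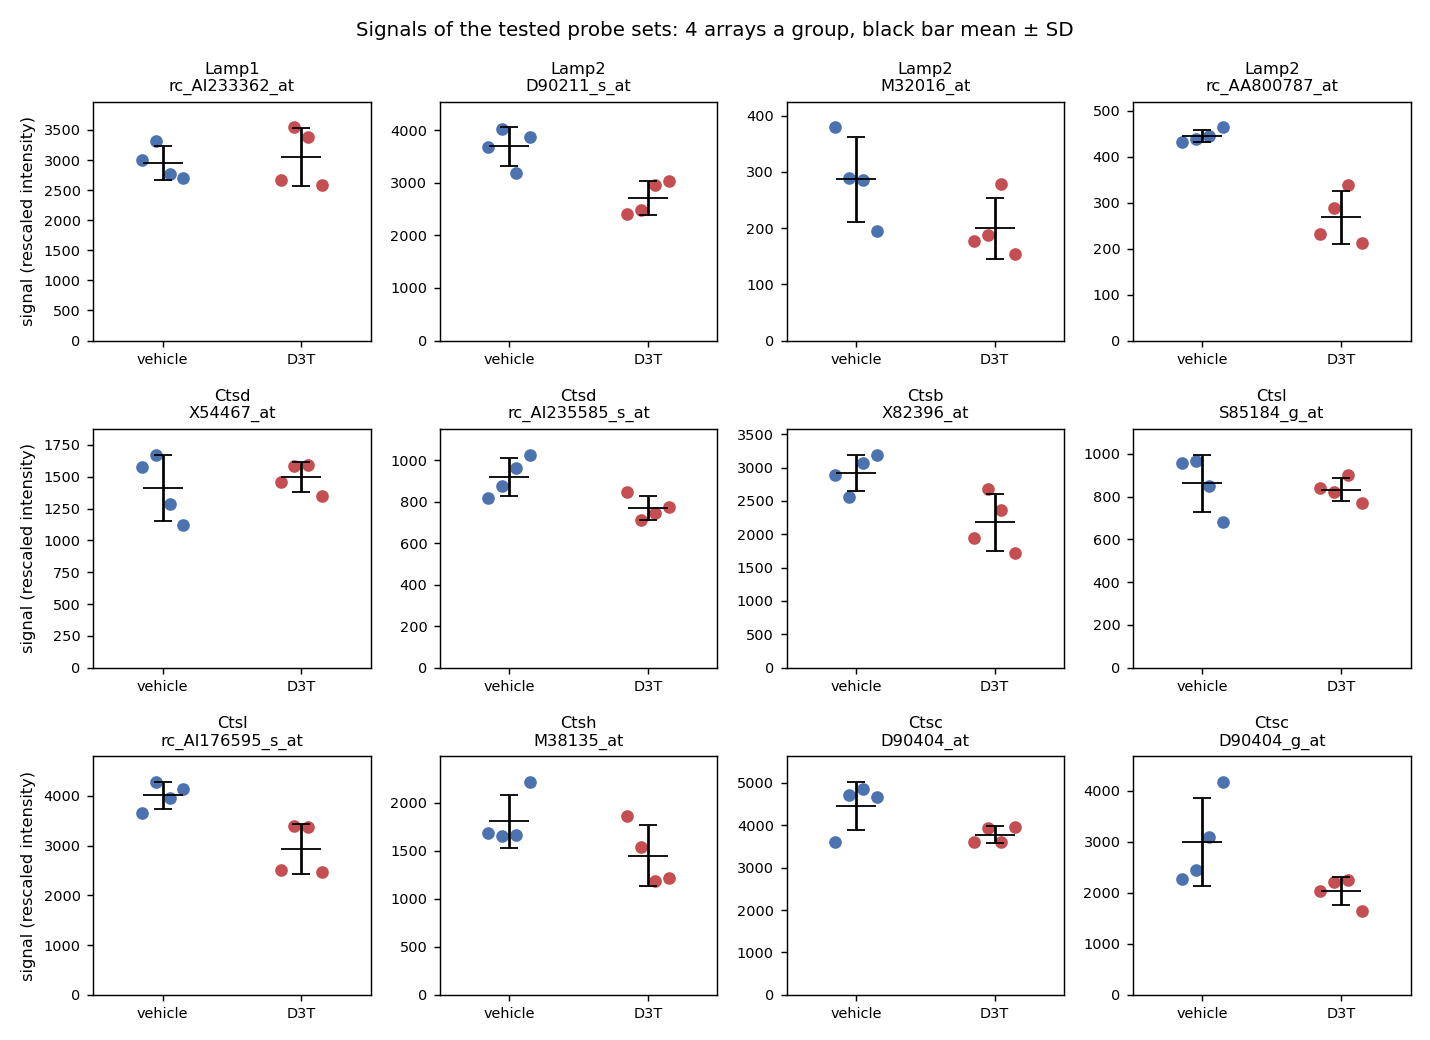
Signal of each tested probe set (vertical axis, rescaled intensity from 0) in the vehicle and D3T groups. Points are the 4 arrays of a group in replicate order and black bars are the mean ± SD. The D3T points of Lamp2 D90211_s_at, Lamp2 rc_AA800787_at, Ctsl rc_AI176595_s_at and Ctsc D90404_g_at lie below every vehicle point, and those of the other 8 probe sets overlap with them.

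**Figure D2:**
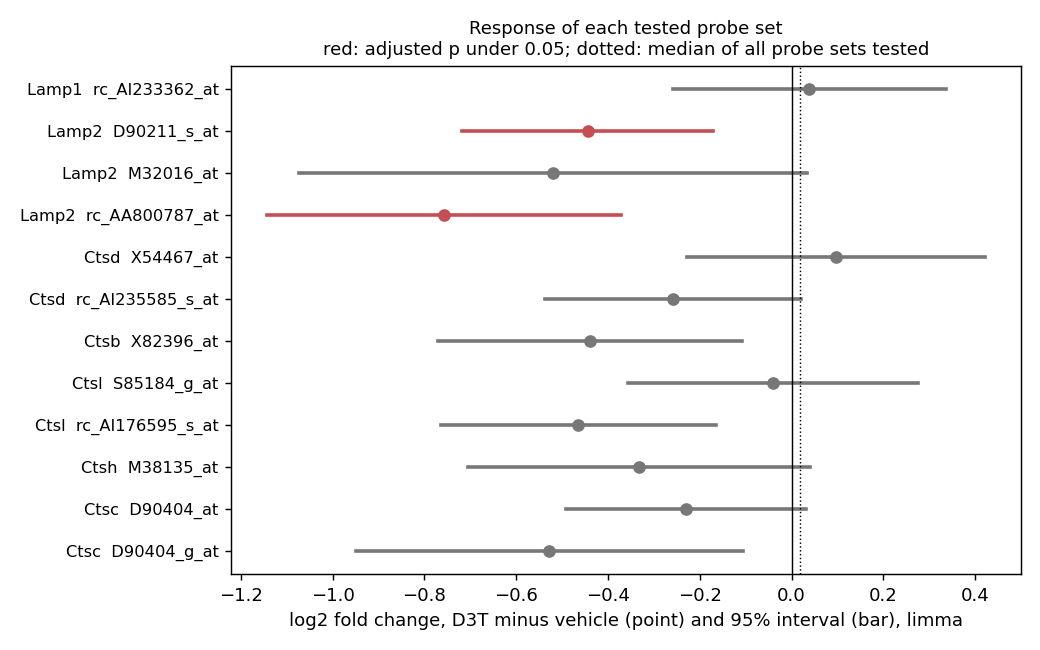
Log2 fold change of D3T against vehicle for the 12 tested probe sets (points) with 95% intervals from limma (bars). Red marks the 2 Lamp2 probe sets past the threshold, the dotted line is the median of all probe sets tested at 0.02, and 10 of the 12 points lie below 0.

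Lamp2, whose protein lines the lysosomal membrane and in one of its splice forms imports proteins for chaperone-mediated autophagy, was read by 3 tested probe sets. The probe set rc_AA800787_at gave 433, 438, 445 and 463 in vehicle replicates 1 to 4 and 232, 287, 339 and 213 in D3T replicates 1 to 4. The vehicle arrays were close together, and every D3T array lay below them. The change was 1.69-fold lower, -0.76 ± 0.17 (SE, n = 4 per group) on the log2 scale with a 95% interval of -1.14 to -0.37, and passed with limma (adjusted p = 0.0230). The probe set D90211_s_at gave 3679, 4019, 3190.0 and 3881 in the vehicle arrays and 2401, 2481, 2958 and 3029 in the D3T arrays. The groups did not overlap here either, and the gap between the lowest vehicle array and the highest D3T array was small. This probe set was 1.36-fold lower (-0.44 ± 0.12 on the log2 scale, limma adjusted p = 0.0456), and its name marks sequence shared with other transcripts. The probe set M32016_at gave 379, 289, 286 and 194 in the vehicle arrays and 178, 188, 279 and 154 in the D3T arrays. D3T replicate 3 lay among the vehicle arrays, and the change, -0.52 ± 0.25 on the log2 scale, did not pass with limma (adjusted p = 0.197). Which splice form each probe set reads is not given in the sources used here.

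The calls for Lamp2 needed nearly all arrays. The call of rc_AA800787_at was lost without vehicle replicate 1, 3 or 4 (limma adjusted p = 0.0582, 0.0614 and 0.0592) and without D3T replicate 1 or 4 (0.0633 and 0.0573), and kept in the other 3 fits without 1 array. The log2 fold change ran from -0.77 to -0.65 in the 5 fits that lost the call and from -0.88 to -0.76 in the 3 that kept it. D90211_s_at passed in 0 of the 8 fits without 1 array (limma adjusted p from 0.0538 without D3T replicate 3 to 0.117 without D3T replicate 1), with log2 fold changes from -0.51 to -0.39. When each array's actin 3'/5' ratio was entered as a covariate, the log2 fold changes were -0.39 for rc_AA800787_at and -0.42 for D90211_s_at, and neither passed (limma adjusted p = 0.505 and 0.386). In the same fit M32016_at was at -0.09. Nqo1 also lost its call there (limma adjusted p = 0.0802), at a log2 fold change of 1.67 against 1.78 without the covariate.

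Lamp1, the partner glycoprotein of the lysosomal membrane, had a change near 0. Its tested probe set, rc_AI233362_at, gave 3008, 3319, 2768 and 2705 in the vehicle arrays and 2676, 3543, 3388 and 2592 in the D3T arrays. In the D3T group 2 arrays lay above and 2 below all vehicle arrays, and the log2 fold change was 0.04 ± 0.13 with a 95% interval of -0.26 to 0.34 (limma adjusted p = 0.866). The other 3 probe sets of Lamp1 were under the filter. Signals of rc_AA850756_at ran from 33.6 to 88.7 in vehicle and 44.6 to 72.9 after D3T, and those of rc_AA899808_at from 11.8 to 60.9 and 20.7 to 46.9. All 8 arrays of rc_AA899808_g_at were at the floor.

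To compare both glycoproteins within each array, the log2 ratio of a Lamp2 probe set to the Lamp1 probe set was taken, in an analysis added after the values were seen. The differences compared were 6 in all, these 3 and the 3 between probe sets of one gene given below. For rc_AA800787_at the ratio was -2.80, -2.92, -2.64 and -2.55 in the vehicle arrays and -3.53, -3.62, -3.32 and -3.61 in the D3T arrays. All 4 D3T ratios were below all 4 vehicle ratios, a shift of -0.80 (exact two-sided permutation p = 0.0286, the smallest that 4 against 4 arrays can give, adjusted p = 0.0857 over the 6 differences). For D90211_s_at the ratio was 0.29, 0.28, 0.20 and 0.52 in the vehicle arrays and -0.16, -0.51, -0.20 and 0.22 in the D3T arrays, where D3T replicate 4 overlapped with the vehicle arrays. The shift was -0.48 (exact two-sided permutation p = 0.0571, adjusted p = 0.0857). For M32016_at the shift was -0.56 with overlapping groups (exact two-sided permutation p = 0.0571, adjusted p = 0.0857). With 4 against 4 arrays, a single fully separated difference could not have passed after adjustment over the 6 differences. The adjusted values therefore do not decide whether Lamp2 and Lamp1 responded differently. The 3 shifts had the same sign. They share the same Lamp1 values.

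**Figure D3:**
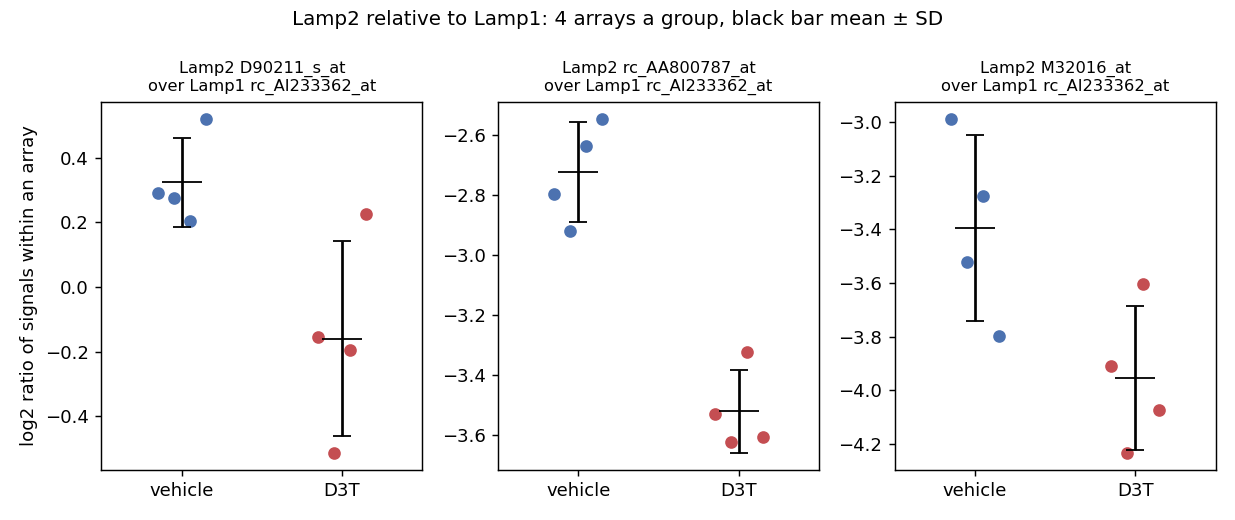
Log2 ratio of each Lamp2 probe set to the Lamp1 probe set within an array (vertical axis, each panel on its own range) for the 4 vehicle and 4 D3T arrays, with mean ± SD as black bars. The ratio of rc_AA800787_at is lower in every D3T array than in every vehicle array, and in the other panels 1 or more D3T arrays overlap with the vehicle arrays.

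Promoters of 4 of these genes are shown, since Lamp2 and Lamp1, and Ctsl and Ctsd, differ in the motifs they hold. The sequences are the 250 bases before the transcript start, from the RefSeq promoter table on GRCr8, which held 9 of the 10 genes. Capitals mark CACGTG, the E-box core read by the transcription factors TFEB and TFE3 that drive lysosomal genes, and GGGCGG on either strand, the GC box read by Sp1-type factors. The first is Lamp2 at chrX:122087674-122087923 on the minus strand, the second Lamp1 at chr16:83075064-83075313 on the minus strand, the third Ctsd at chr1:206968822-206969071 on the minus strand and the last Ctsl at chr17:769854-770103 on the plus strand.
Lamp2: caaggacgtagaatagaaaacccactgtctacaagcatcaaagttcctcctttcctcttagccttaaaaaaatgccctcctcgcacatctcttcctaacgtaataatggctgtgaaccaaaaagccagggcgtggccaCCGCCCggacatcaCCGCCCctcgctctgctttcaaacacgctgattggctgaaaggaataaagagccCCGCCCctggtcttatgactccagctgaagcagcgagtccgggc
Lamp1: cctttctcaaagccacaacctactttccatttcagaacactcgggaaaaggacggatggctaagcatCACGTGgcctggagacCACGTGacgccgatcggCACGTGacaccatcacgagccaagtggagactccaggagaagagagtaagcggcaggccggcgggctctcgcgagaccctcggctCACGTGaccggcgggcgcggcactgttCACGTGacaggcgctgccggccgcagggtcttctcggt
Ctsd: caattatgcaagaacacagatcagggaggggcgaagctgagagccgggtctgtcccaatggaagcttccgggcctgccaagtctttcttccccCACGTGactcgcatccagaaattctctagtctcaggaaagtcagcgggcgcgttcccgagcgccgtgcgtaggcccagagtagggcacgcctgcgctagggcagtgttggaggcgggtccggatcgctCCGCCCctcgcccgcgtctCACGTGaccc
Ctsl: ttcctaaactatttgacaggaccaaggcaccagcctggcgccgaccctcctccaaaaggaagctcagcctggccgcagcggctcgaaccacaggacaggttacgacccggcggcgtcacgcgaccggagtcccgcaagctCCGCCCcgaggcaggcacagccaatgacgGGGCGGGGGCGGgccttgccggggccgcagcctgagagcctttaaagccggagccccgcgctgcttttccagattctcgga

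The Lamp1 window held CACGTG at 5 places and the Ctsd window at 2, whereas those of Lamp2, Ctsl and the other 5 genes in the table held none. CACGTG is its own reverse complement and was present in 5.59% of the 33469 promoter windows of this length. With a leading T (TCACGTG, either strand), which overlaps with it, the letters were found in the same 2 genes and in 2.79% of all windows. GGGCGG stood at 3 places in Lamp2, 3 in Ctsl and 1 each in Ctsd, Ctsc and Lgmn, and in 30.5% of all windows. TGACNNNGC on either strand, the core of the antioxidant response element bound by the factor encoded by Nfe2l2, was found at 2 places in the Ctsl window, in no other of the 9 windows and in 10.1% of all windows. The matches describe the letters alone, and no binding was measured.

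Among the aspartic proteases, Ctsd, the major aspartic protease of lysosomes, was read by 2 tested probe sets whose log2 fold changes had opposite signs. The probe set X54467_at gave 1576, 1675, 1283 and 1119.9 in the vehicle arrays and 1456, 1586, 1594 and 1347 in the D3T arrays, with all D3T arrays inside the vehicle range. Its log2 fold change was 0.10 ± 0.15 (limma adjusted p = 0.681). The probe set rc_AI235585_s_at gave 821, 875, 962 and 1028 in the vehicle arrays and 845, 711, 745 and 774 in the D3T arrays. Of the D3T arrays 3 lay below all vehicle arrays, and the log2 fold change of -0.26 ± 0.13 did not pass with limma (adjusted p = 0.202). The name of this probe set, like that of Lamp2 D90211_s_at, marks sequence shared with other transcripts. The ratio of the 2 probe sets shifted by -0.36 (exact two-sided permutation p = 0.171, adjusted p = 0.206), so a difference between their responses was not shown.

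Ctse, an aspartic protease known from stomach and immune cells rather than liver, was dim. Its probe set D45187_s_at ran from 10.1 to 70.8 in the vehicle arrays, 2 of them at the floor, and from 42.0 to 81.0 in the D3T arrays. Tested without the filter, it differed by 0.50 on the log2 scale, short of the threshold with limma (adjusted p = 0.640).

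Among the cysteine proteases, Ctsb and Ctsl, broadly active endopeptidases, were the nearest to the threshold. Ctsb, read by X82396_at, gave 2884, 2556, 3064 and 3181 in the vehicle arrays and 1946, 2682, 2368 and 1719 in the D3T arrays. D3T replicate 2 lay inside the vehicle range and the other 3 below it. The signal was 1.36-fold lower (-0.44 ± 0.15 on the log2 scale, 95% interval -0.77 to -0.11) and did not pass with limma (adjusted p = 0.0853), except without D3T replicate 2 (adjusted p = 0.0413). With the actin covariate the log2 fold change was -0.16.

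Ctsl was read by 2 tested probe sets. The probe set rc_AI176595_s_at gave 3649, 4281, 3957 and 4141 in the vehicle arrays and 2507, 3384, 3364 and 2475 in the D3T arrays. All D3T arrays lay below all vehicle arrays. The change of -0.46 ± 0.14 on the log2 scale stood just outside the threshold with limma (adjusted p = 0.0528), and it passed with the floor at the 40th percentile (0.0466), among the brightest 30% (0.0333) and without D3T replicate 2 or 3 (0.0391 and 0.0465). With the actin covariate it was -0.22 (limma adjusted p = 0.656). The name of this probe set, like that of Lamp2 D90211_s_at, marks sequence shared with other transcripts. The probe set S85184_g_at gave 958, 967, 848 and 680.1 in the vehicle arrays and 838, 824, 900.4 and 769 in the D3T arrays, with a log2 fold change of -0.04 ± 0.14 and a 95% interval of -0.36 to 0.28 (limma adjusted p = 0.870). Here all D3T arrays lay inside the vehicle range. The uncounted probe set S85184_at, with the same name stem, was lower (-0.76 ± 0.20 on the log2 scale, limma adjusted p = 0.0397). Within arrays the ratio of the 2 Ctsl probe sets shifted by -0.42 (exact two-sided permutation p = 0.0571, adjusted p = 0.0857).

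Ctsh and Ctsc remove residues from the amino end of proteins, and Ctsc activates the serine proteases of immune cell granules. Ctsh, read by M38135_at, gave 1689, 1654, 1660.3 and 2216 in the vehicle arrays and 1855, 1536, 1180.1 and 1215 in the D3T arrays. Among the vehicle arrays replicate 4 was the highest by a wide gap, and D3T replicate 1 lay inside their range. The log2 fold change was -0.33 ± 0.17 (limma adjusted p = 0.217). Ctsc was read by D90404_at, with 3615, 4708, 4851 and 4657 in the vehicle arrays and 3602, 3933, 3613 and 3967 in the D3T arrays. Vehicle replicate 1 lay apart from the other vehicle arrays and among the D3T arrays, and the change of -0.23 ± 0.12 did not pass with limma (adjusted p = 0.224). The second probe set of the same accession, D90404_g_at, gave 2273, 2442, 3087 and 4172 in the vehicle arrays and 2039, 2212, 2241 and 1636 in the D3T arrays. The groups did not overlap, but the vehicle arrays were widely spread, and the change of -0.53 ± 0.19 did not pass with limma either (adjusted p = 0.10). The ratio of both Ctsc probe sets shifted by -0.30 (exact two-sided permutation p = 0.229, adjusted p = 0.229).

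Ctsk, known as the collagen-degrading protease of osteoclasts, was dim in these livers. Its probe set rc_AA925246_at ran from 21.3 to 63.3 in the vehicle arrays and from 37.9 to 106 in the D3T arrays. Without the filter the difference was 0.65 on the log2 scale (limma adjusted p = 0.500).

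Other lysosomal genes were described from 6 lists, 51 of whose genes were tested with the brightest probe set of each. Of these 51, 3 were lower and 0 higher by limma, beside 5.84% lower and 3.71% higher among 3150 genes tested this way. The share called lower was thus close to that of all genes. The median log2 fold change of the 51 was -0.16, beside 0.03 for all genes. Among the remaining lysosomal proteases only Ctss, the cathepsin of antigen-presenting cells, was tested. It gave 1113, 1463, 1863 and 1678 in the vehicle arrays and 799.7, 938, 840.2 and 934 in the D3T arrays. Every D3T array lay below every vehicle array, and Ctss fell 1.71-fold (-0.78 ± 0.16 on the log2 scale, limma adjusted p = 0.0163). Its call was lost without vehicle replicate 3 (limma adjusted p = 0.0516), with no filter (0.0528) and with the actin covariate (0.131), where the log2 fold change was -0.99.

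Of 10 acid hydrolases and activators none passed with limma, and the median was 0.04. Psap, the precursor of the saposins that help to degrade sphingolipids, was the brightest of them, at 8627 ± 524 in the vehicle arrays and 6942 ± 466 in the D3T arrays (SD, n = 4 each), which did not pass with limma (adjusted p = 0.0671), and its other 2 tested probe sets had the opposite sign. Among 11 membrane and sorting genes 1 passed as lower, with a median of -0.09. It was Cltc, the clathrin heavy chain of coated vesicles, at 828, 779.6, 1022 and 1041 in the vehicle arrays and 489, 631, 672 and 482 in the D3T arrays, 1.62-fold lower with limma (adjusted p = 0.0255). Its call was lost without vehicle replicate 3 or 4 (limma adjusted p = 0.0773 and 0.0700) and without D3T replicate 1 or 4 (0.0697 and 0.0685), with log2 fold changes from -0.64 to -0.62 against -0.70 ± 0.16 with all arrays. The call of Cltc was also lost with quantile normalization (limma adjusted p = 0.0501), no intensity trend (0.0529) and no filter (0.0618). It was lost too with the replicate number as a block (limma adjusted p = 0.05555) and with the actin covariate (0.440, log2 fold change -0.46). It passed in 10 of 19 alternatives.

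The vacuolar proton pump, which acidifies lysosomes, had 7 of 8 subunit genes below 0 and a median of -0.32, and none passed with limma. Its brightest gene, Atp6v0c, of the membrane ring, was at 5021 ± 497 in the vehicle arrays and 4081 ± 304 in the D3T arrays (SD, n = 4 each, limma adjusted p = 0.108). None of 5 genes of cathepsin inhibitors passed with limma, with a median of -0.14. The brightest was the kininogen gene Kng2 (11245 ± 899 in vehicle and 10245 ± 1458 after D3T, SD, n = 4, limma adjusted p = 0.466). Of 16 autophagy and endosome genes 1 was lower, and the median was -0.25. It was Ulk2, a kinase that starts autophagy, which gave 242, 222, 242 and 196 in the vehicle arrays and 29.9, 172, 41.5 and 57.0 in the D3T arrays. D3T replicate 2 stood well above the other D3T arrays and below all vehicle arrays, and Ulk2 was 3.81-fold lower with limma (adjusted p = 0.0273). Its call was lost without replicate 1, 3 or 4 of either group (limma adjusted p from 0.0555 to 0.0756). With the actin covariate 0 of the 51 genes passed with limma, and in the fits without 1 array from 0 to 4 did.

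**Figure D4:**
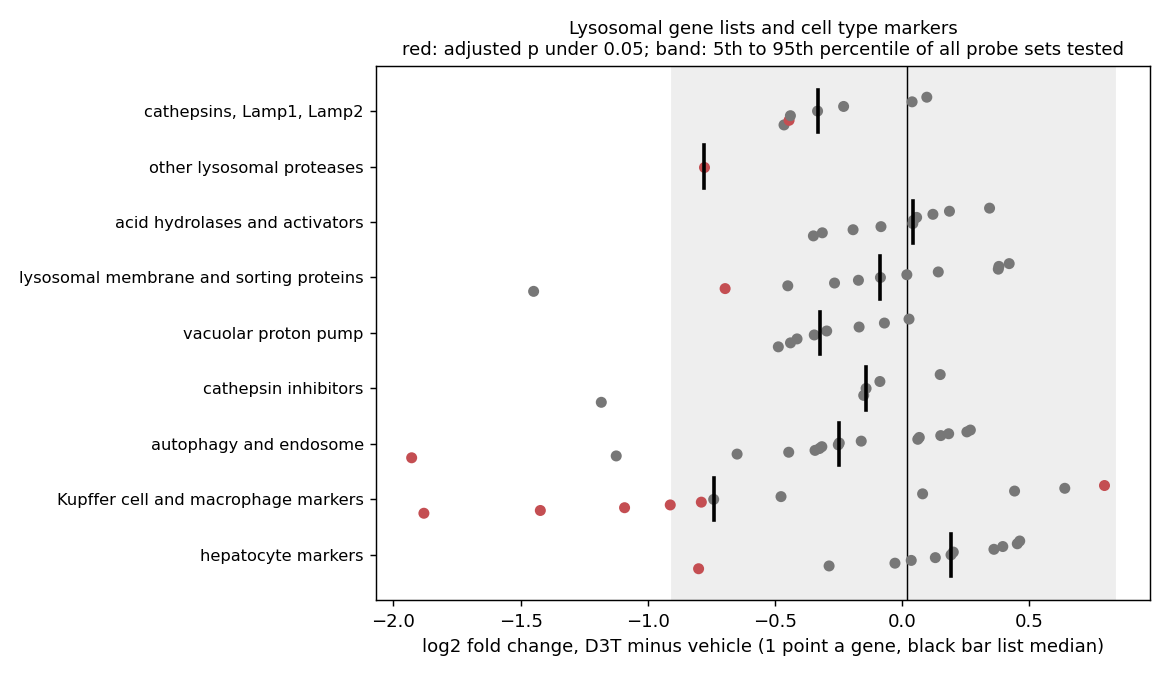
Log2 fold change of D3T against vehicle for the tested genes of each list (1 point a gene, black bars list medians). Red points passed the threshold, the vertical line is the median and the grey band the 5th to 95th percentile of all probe sets tested. The Kupffer cell list has the lowest median of the lists with more than 1 gene, at -0.74.

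Of 11 tested markers of Kupffer cells and macrophages, 5 were lower (Cyba, Cd74, Aif1, Fcgr2b and C1qb) and 1, the endotoxin co-receptor Cd14, was higher by limma, beside 5.84% lower and 3.71% higher among all genes. Of the 3 tested probe sets of Aif1, 1 had the opposite sign to the brightest, which was counted. The median log2 fold change of the 11 markers was -0.74. The other 5 did not pass, with log2 fold changes of -0.74 for Lyz2, -0.48 for Clec4f, 0.08 for C1qc, 0.44 for Cd4 and 0.64 for Ptprc, and for Cd4 all D3T arrays lay above all vehicle arrays. The summed signal of the 13 markers with a probe set ran from 7909 to 9245 in the vehicle arrays and from 5858 to 6675 in the D3T arrays, so the groups did not overlap, and no marker was at the floor on all 8 arrays. Such a sum weighs bright markers most. C1qb and Cd74, the brightest tested markers in the vehicle arrays, were already among the lower calls, so the sum is not separate from those. Clec4f, a receptor particular to rodent Kupffer cells, was at 725, 954, 918 and 960.0 in the vehicle arrays and 577, 712, 600.2 and 659 in the D3T arrays with groups that did not overlap (limma adjusted p = 0.0546). In whole liver, fewer cells of a type and less RNA per cell cannot be told apart. The part of these cells in the lower Lamp2 and Ctss signals was not tested. Hepatocyte markers had a median of 0.19 over 11 genes, of which 1 was lower and 0 higher with limma.

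The genes whose pattern over the 8 arrays was most like each called Lamp2 probe set were found by the root mean square difference of centred log2 signals, over 3143 genes outside the set. For D90211_s_at they were Anpep (difference 0.07) and Pafah1b2 (0.10), where the median over genes was 0.43. Anpep had a log2 fold change of -0.48 ± 0.14 (SE) and Pafah1b2 of -0.38 ± 0.26, and neither passed with limma (adjusted p = 0.0577 and 0.354). For rc_AA800787_at they were Prkd3 (0.07) and Hao2 (0.08), beside a median of 0.55. Prkd3 was lower by -0.84 ± 0.17 and Hao2 by -0.75 ± 0.17, both past the threshold with limma (adjusted p = 0.0157 and 0.0196). All of these genes were chosen for their likeness to a called probe set on the same arrays. Their changes and adjusted p therefore follow from that choice and give no separate support.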

How the data were processed

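Each deposited value is the intensity of 1 probe set on 1 array on a linear scale, made by the authors with MAS5 per the submitters' processing notes. The MAS5 version is not given in the sources used here. The deposited intensities had 2% trimmed means from 500.9 to 501.0, so the arrays had been scaled before deposit. Groups and replicate numbers came from the sample titles. Each array was rescaled, floored at the 20th percentile and log2-transformed. Of 8740 non-control probe sets, 5244 were tested with limma 3.58.1 in R 4.3.3 (lmFit, eBayes with an intensity trend), with Benjamini-Hochberg adjustment over all of them and a threshold of 0.05. A fold change compares geometric means taken after the floor and is therefore too small for probe sets near it. Means and SDs of signals are linear. The labels do not name batches.

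Probe sets were named through the platform's annotation table where it gave 1 symbol (7006 probe sets; 308 had several and 1426 none). All genes of the set are described with every probe set. In 6 other lysosomal lists, up to 3 genes past the threshold are named, those with the greatest fold, or the brightest where none passed, and 2 like-patterned genes for each called probe set. The genes and lists were chosen with earlier results of these data known. Marker genes were named singly after their values were seen. The script was tested on simulated data.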

Additional observations from a re-analysis of the deposited data

Results flagged for a closer look

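A lone array, whose distance to its nearest neighbour takes up most of its group's range (above Dixon's critical value), was found in 2 of 34 groups checked, where chance gives about 1 in 20. Ctsc (D90404_at) was at 3615 in vehicle replicate 1, with the nearest vehicle array at 4657. Ctsh (M38135_at) was at 2216 in vehicle replicate 4, with the nearest vehicle array at 1689.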

How the results depend on the processing

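The 2 member probe sets called by limma, both of Lamp2, became 1 with quantile normalization, with no filter, with no intensity trend and without probe sets whose names mark shared sequence. They became 0 when the actin 3'/5' ratio, which ran closely with the treatment, was entered as a covariate. Leaving out each array in turn gave 0 to 3 member probe sets, 240 to 695 of all probe sets and 0 to 4 other lysosomal genes called. Over all probe sets, 560 calls became 309 with no filter, 333 with no intensity trend and 35 with the actin covariate, and the 3 other lysosomal genes became 0 with no filter and 0 with the actin covariate. An ordinary linear model without shared variance gave adjusted p = 0.0511 and 0.0766 for the Lamp2 probe sets. The cause of these losses was not tested. With the replicate number as a block, 290 probe sets passed and 0 member probe sets. The same-numbered arrays did not deviate together (correlations of -0.20 to 0.06, and 2 of 8 arrays closest to their own number). So few arrays cannot show whether the numbers pair the rats. Changes near 0 crossed it. Ctsl S85184_g_at was 0.041 with quantile normalization, 0.054 with the actin covariate, and -0.15 to 0.019 without 1 array. Ctsd X54467_at was -0.0091 to 0.18 and Lamp1 -0.038 to 0.11 without 1 array. No value with a call changed sign, and 332 of 390 values of single probe sets under alternatives kept their direction and their side of the threshold. The 6 within-array differences kept their signs and did not pass in the 10 settings run for them. With so few arrays a single difference could not have passed after adjustment.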

Other observations

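Liver cells other than hepatocytes and Kupffer cells also carry lysosomes, and their markers were measured on the same arrays. Of 7 tested markers of sinusoidal endothelial and stellate cells, 2 were lower and 0 higher by limma, beside 5.84% lower and 3.71% higher among all genes, and the median over the 7 was -0.32 on the log2 scale. The 2, named after their values were seen, were the collagen gene Col3a1 (-0.90 ± 0.24, adjusted p = 0.0399), whose groups overlapped, and Lyve1, a hyaluronan receptor of sinusoidal endothelium (-0.80 ± 0.23, adjusted p = 0.0474). Bile duct markers had a median of 0.17 over 5 genes and erythroid markers of -0.29 over 4, and none of either passed with limma. None of 6 neutrophil and mast cell markers was bright enough to be tested.

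The probe set S85184_at carries the same accession as the Ctsl probe set S85184_g_at but is not listed in the annotation table, so it is unnamed here and was not counted. It gave 391, 299.6, 365 and 319 in the vehicle arrays and 192, 220.3, 263 and 151 in the D3T arrays. All D3T arrays lay below all vehicle arrays, and its log2 fold change of -0.76 ± 0.20 passed with limma (adjusted p = 0.0397), unlike that of S85184_g_at, and the difference between these probe sets was not tested.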
